A study of Mus musculus with 42 samples.

Results

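Potassium channel genes were read on 42 single-colour mouse arrays as the genes whose array symbol begins with Kcn. The array carried 87 such genes on 130 probes, out of 27056 gene names and 41174 probes in all. A probe was counted when all 3 arrays of some group and tissue read it well above background, which left 61 genes on 83 probes. The 26 genes with no counted probe included Kcna3, Kcnip2, Kcnj5 and Kcnk2, and no probe bore the symbol Kcna7 or Kcnj13. Where a gene had more than 1 counted probe, the probes are numbered by their position on the chromosome and described apart, and the level of a probe is not set against that of another probe.

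Total RNA came from aorta and from muscle, with 3 arrays for each of 7 groups of male mice. The healthy group were C57BL/6 mice, the diabetic group KK/Ay mice, and the macroangiopathy group KK/Ay mice on a diet high in fat that also received L-NAME, which blocks nitric oxide synthase. The remaining 4 groups were mice of that same model treated by gavage with SHENQI, a Chinese herbal compound, with its yangyinyiqi or huoxue part, or with rosiglitazone, an agonist of the nuclear receptor PPAR gamma, whereas the first 3 groups received saline. KK/Ay mice carry yellow agouti and differ from C57BL/6 mice in strain, so strain and diabetes cannot be told apart in these groups. There were no KK/Ay mice without diabetes and no treated healthy mice among the groups.

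Potassium channels let potassium leave or enter a cell and so set its resting voltage and the shape of its electrical signals. In vascular smooth muscle their opening hyperpolarizes the membrane, closes voltage-gated calcium channels and relaxes the vessel, and in skeletal muscle they end the action potential and hold the resting voltage. Pore subunits assemble as tetramers or dimers, alone or with silent subunits that do not form channels by themselves, and auxiliary subunits adjust their opening and their transport to the membrane.

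By family, 11 voltage-gated pore genes on 16 probes were counted, with 5 silent modifiers on 5 probes, 2 Kcnq genes on 3 probes and 4 Kcnh genes on 4 probes. Channels opened by calcium or sodium gave 8 genes on 11 probes, inward rectifiers 11 genes on 13 probes, tandem-pore (K2P) channels 8 genes on 11 probes, and auxiliary subunits 11 genes on 16 probes. The last 4 probes read Kcnq1ot1, a long non-coding RNA of the Kcnq1 locus, which the symbol rule took in although it encodes no channel.

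The start regions of 3 members are shown for reference, namely Kcnc1, the lowest in aorta, Kcng4, which differed between healthy and diabetic muscle, and Kcnmb1, the smooth muscle subunit of the BK channel. They are given as the 250 bases before the RefSeq start in GRCm38.p6, written 5′ to 3′ on the strand of the gene. Capitals mark matches to GGGCGG, the core that Sp1-type factors bind, or to CAGCTG, an E-box of the kind that myogenic factors bind, on either strand.
Kcnmb1 (chr11:33962763-33963012, plus strand): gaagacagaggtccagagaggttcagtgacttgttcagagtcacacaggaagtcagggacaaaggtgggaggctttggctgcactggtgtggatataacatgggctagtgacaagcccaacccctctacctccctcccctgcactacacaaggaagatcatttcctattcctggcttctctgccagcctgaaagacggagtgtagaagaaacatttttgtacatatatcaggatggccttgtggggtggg
Kcnc1 (chr7:46396218-46396467, plus strand): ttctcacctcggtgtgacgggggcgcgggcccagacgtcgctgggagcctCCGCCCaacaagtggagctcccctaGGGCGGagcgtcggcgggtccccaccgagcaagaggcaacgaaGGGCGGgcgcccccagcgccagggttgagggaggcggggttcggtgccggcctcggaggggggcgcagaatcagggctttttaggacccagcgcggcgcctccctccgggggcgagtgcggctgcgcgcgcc
Kcng4 (chr8:119635681-119635930, minus strand): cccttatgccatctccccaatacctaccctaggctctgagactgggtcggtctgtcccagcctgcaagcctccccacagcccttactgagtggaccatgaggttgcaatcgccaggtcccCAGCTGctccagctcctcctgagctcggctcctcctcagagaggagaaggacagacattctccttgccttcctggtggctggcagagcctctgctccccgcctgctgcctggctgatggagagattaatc
The window of Kcnc1 was 74.4% G or C and held 3 matches to GGGCGG, that of Kcng4 was 60.4% G or C and held 1 match to CAGCTG, and that of Kcnmb1 was 50.8% G or C and held no match. RefSeq start regions were matched for 47 of the 61 genes, with 62 windows, of which 27 (43.5%) held GGGCGG against 32.7% of all 32851 windows of that length. CAGCTG lay in 15 of the 62 (24.2%) against 13.0% of all windows. Windows and not genes are counted, and a gene with several starts gave several windows. Some overlap, as in Kcnc2, so a site can count more than once. The CArG box of serum response factor was found in 0 of the 62 and in 1.47% of all windows, and the MEF2 site in 1 of the 62, that of Kcnj9, and in 2.92% of all. A match describes the letters and not a bound site.

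The arrays lay on 11 slides, numbered here, and were scanned on 4 days. An array had 20198 to 30274 probes well above background and no saturated spot, and the lowest counts, 20198 to 21547, were those of slide 11 with the 3 huoxue muscle arrays and 1 rosiglitazone muscle array. Of the 83 member probes, an aorta array read 49 to 77 above background and a muscle array 42 to 67. Skeletal muscle markers averaged 16.56 to 17.05 on the log2 scale in the 21 muscle arrays but 7.24 to 15.62 in the 21 aorta arrays, highest in diabetic aorta 2. Smooth muscle markers averaged 9.57 to 13.81 in aorta and 9.97 to 11.01 in muscle, and healthy aorta 1, at 9.57, lay below every muscle array although it is labelled aorta. Its level of Myh11, the myosin of smooth muscle, was 9.15, against a median of 14.82 over the aorta arrays and a range of 9.26 to 10.23 in muscle. Brown fat markers averaged 12.96 to 15.81 in aorta and 8.89 to 11.07 in muscle, with Ucp1, the uncoupling protein of brown fat, at 14.98 to 17.51 in aorta. Markers of atrial and cardiac muscle ranged from 6.37 to 11.96 in aorta and from 8.18 to 8.65 in muscle. In bulk tissue, fewer cells of a type and less RNA per cell cannot be told apart.

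Aorta and muscle differed at most potassium channel probes. Kcnk3 and Kcnip4 were far higher in aorta, and Kcnc1 and the inward rectifiers of skeletal muscle far lower. Of the 83 probes, 61 passed limma's test at an adjusted p below 0.05, taken over the 21 and 21 arrays with the 7 groups weighted equally, 34 probes (26 genes) higher and 27 probes (23 genes) lower in aorta. Over all 29144 probes tested, 76.1% passed, 39.7% higher and 36.4% lower, so the members' count lay near the background. The median difference was 0.06 log2 units over the members and 0.03 over all probes. For 12 of the 83 member probes the aorta and muscle arrays did not overlap at all, against 8.92% of all probes. Several of them were counted only through the tissue where they read higher, so the counting rule itself favours a gap. These were Kcnip4 probe 1 through aorta, and the Kcnc1 probes, Kcnj2 and Kcnf1 through muscle. A probe counted through 1 tissue alone tends to read higher there, and 26 of the 83 were counted through aorta arrays alone and 10 through muscle arrays alone. Of the 47 probes counted in both tissues 16 were higher and 16 lower in aorta. Of the 16 auxiliary probes 12 were higher and 1 was lower, but 8 of the 12 were counted through aorta alone, and of the 8 counted in both tissues 4 were higher and 1 lower. Of the 16 voltage-gated pore probes 4 were higher and 8 lower, 3 of these 8 being Kcnc1 probes counted through muscle alone, and of the 11 counted in both tissues 3 were higher and 5 lower.

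**Figure D1:**
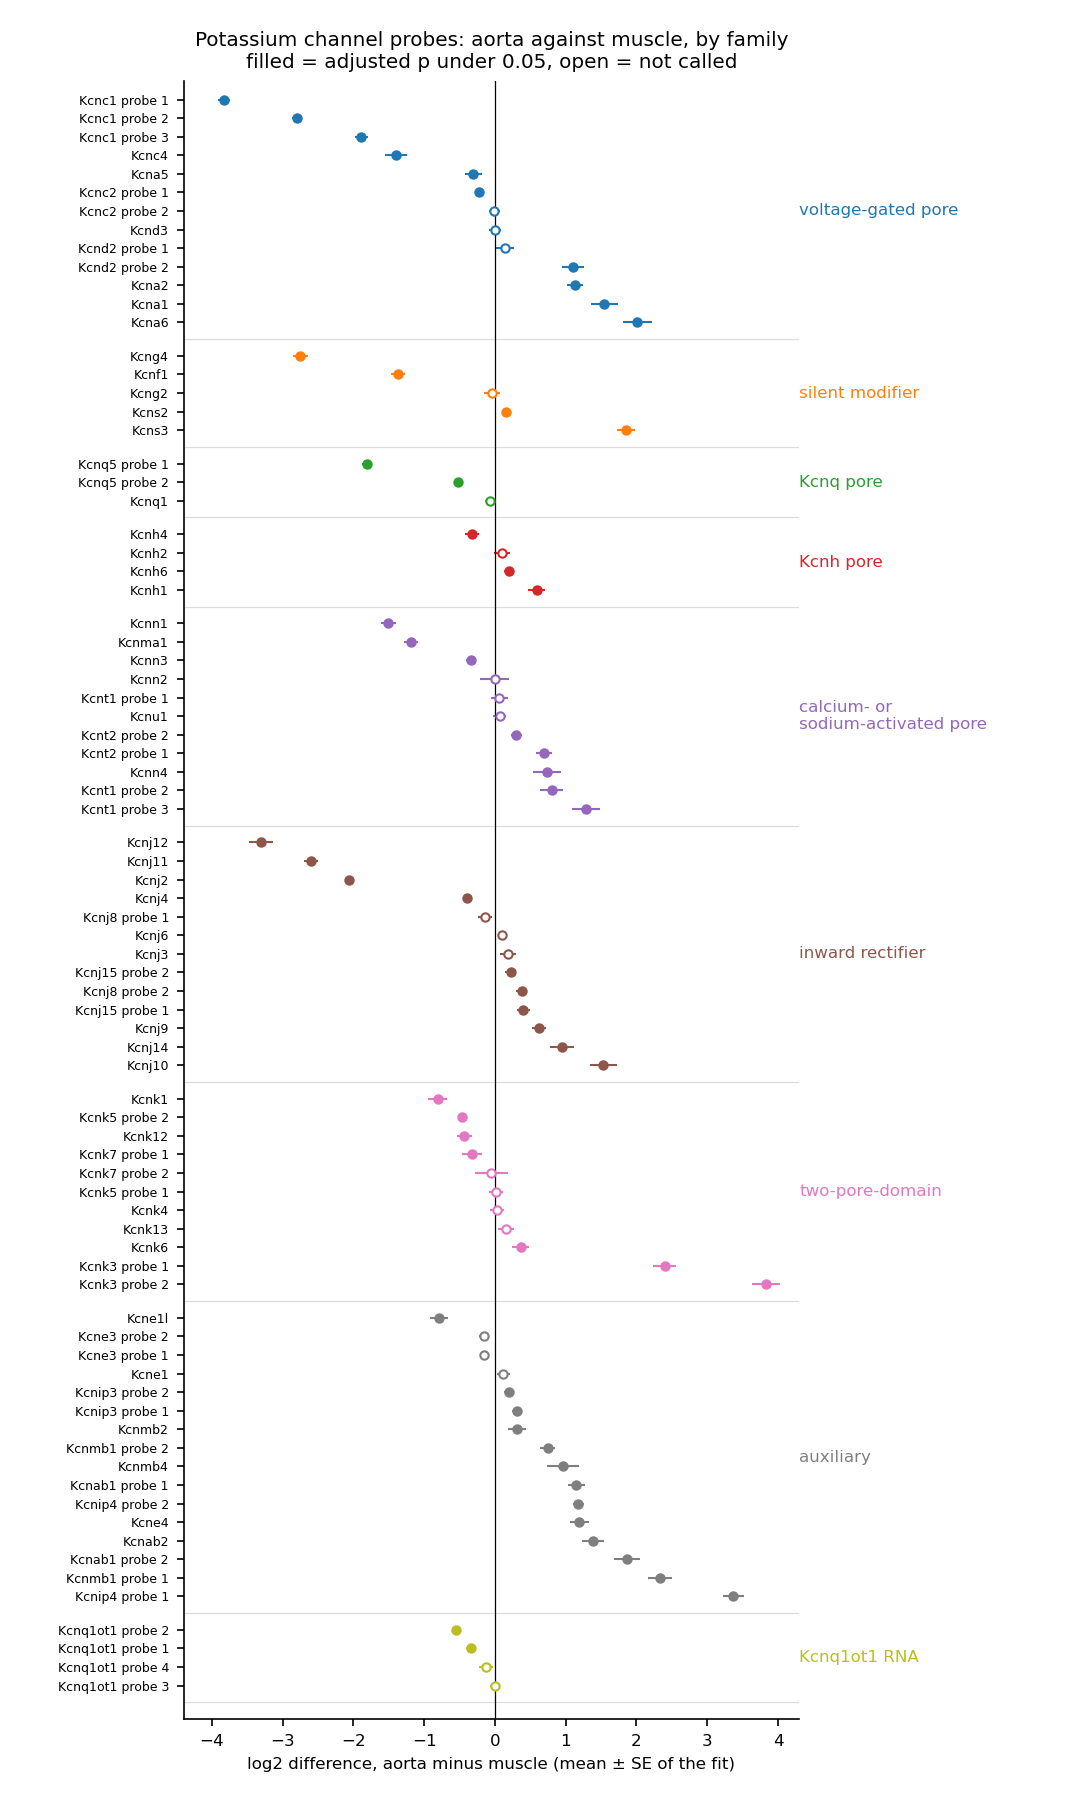
Difference between aorta and muscle in log2 units (horizontal axis) for the counted probes of the genes reported here, grouped by family, with the standard error of the fit as bars; filled points passed the adjusted threshold and open points did not. Points lie on both sides of 0, from Kcnc1 at −3.83 to Kcnk3 at 3.83. For Kcnip4, Kcnf1 and other probes not well above background on any array of a tissue, the plotted value is the measured difference and not a bound.

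The voltage-gated pores split by subfamily. Kcnc1, which encodes Kv3.1, a fast-gating channel of neurons and fast-firing cells, was the lowest member in aorta relative to muscle. Its probe 1 (mm9 chr7:53682767-53682826) read 5.36, 5.75 and 6.64 as lowest, median and highest aorta array and 8.64, 9.69 and 10.22 in muscle, a difference of −3.83 ± 0.08 (SE, adjusted p = 2.64e-26). No aorta array came near the muscle range, and only 7 of the 21 aorta arrays were well above background. Probes 2 and 3 of Kcnc1 differed by −2.79 and −1.89, also with no overlap. The related Kcnc4 differed by −1.40 ± 0.15. Kcna5, a channel of vascular and cardiac muscle, was lower by a small margin, at −0.31 ± 0.12 (adjusted p = 0.0278).

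Subunits of the Shaker family that axons also use were higher in aorta. Kcna6 differed by 2.01 ± 0.20, Kcna1 by 1.55 ± 0.19 and Kcna2 by 1.13 ± 0.11. The A-type channel gene Kcnd2 gave unlike answers, with probe 2 at least 1.43-fold higher in aorta, as no muscle array was well above background, and probe 1 at 0.14 (adjusted p = 0.33). Kcnd3 stood at 0.00 (adjusted p = 0.991).

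Among silent modifiers, Kcns3 was higher in aorta by 1.85 ± 0.13, and Kcng4 was lower by 2.75 log2 units (−2.75 ± 0.11, adjusted p = 2.34e-20). Kcng4 read 5.04, 5.51 and 6.73 in aorta and 5.69, 8.59 and 8.94 in muscle. Its tissues overlapped only through the healthy muscle arrays. Kcnf1 was not well above background on any aorta array and was at least 2.19-fold lower there (adjusted p = 2.53e-14). Kcnq5, a channel of the M-current family, was lower in aorta by 1.81 log2 units at probe 1 (−1.81 ± 0.06), with no overlap, and Kcnq1 stood at −0.08 (adjusted p = 0.325).

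The inward rectifiers of skeletal muscle were much lower in aorta. Kcnj12, which encodes Kir2.2, read 5.78, 7.59 and 8.78 in aorta and 9.77, 11.05 and 11.42 in muscle (−3.30 ± 0.17, adjusted p = 9.65e-18). Kcnj2, which encodes Kir2.1, the channel that holds the resting voltage, read 5.32, 5.57 and 6.23 in aorta and 7.36, 7.67 and 8.06 in muscle (−2.06 ± 0.06, adjusted p = 5.8e-24). Neither gene had an aorta array inside the muscle range. Kcnj11, which encodes Kir6.2, the pore of the ATP-sensitive channel of muscle and beta cells, read 5.26, 6.12 and 6.73 in aorta and 7.57, 8.85 and 9.46 in muscle (−2.60 ± 0.10, adjusted p = 6.67e-21). Kcnj8, which encodes Kir6.1, the pore of the ATP-sensitive channel of vessels, differed little, at 0.38 ± 0.08 with probe 2 (adjusted p = 6.95e-05) and −0.14 with probe 1 (adjusted p = 0.2). Kcnj10, a glial channel, was higher in aorta by 1.53 ± 0.19, and Kcnj3, a subunit of the G-protein-gated channel of the atrium, was not well above background on any muscle array and did not pass (adjusted p = 0.135).

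**Figure D2:**
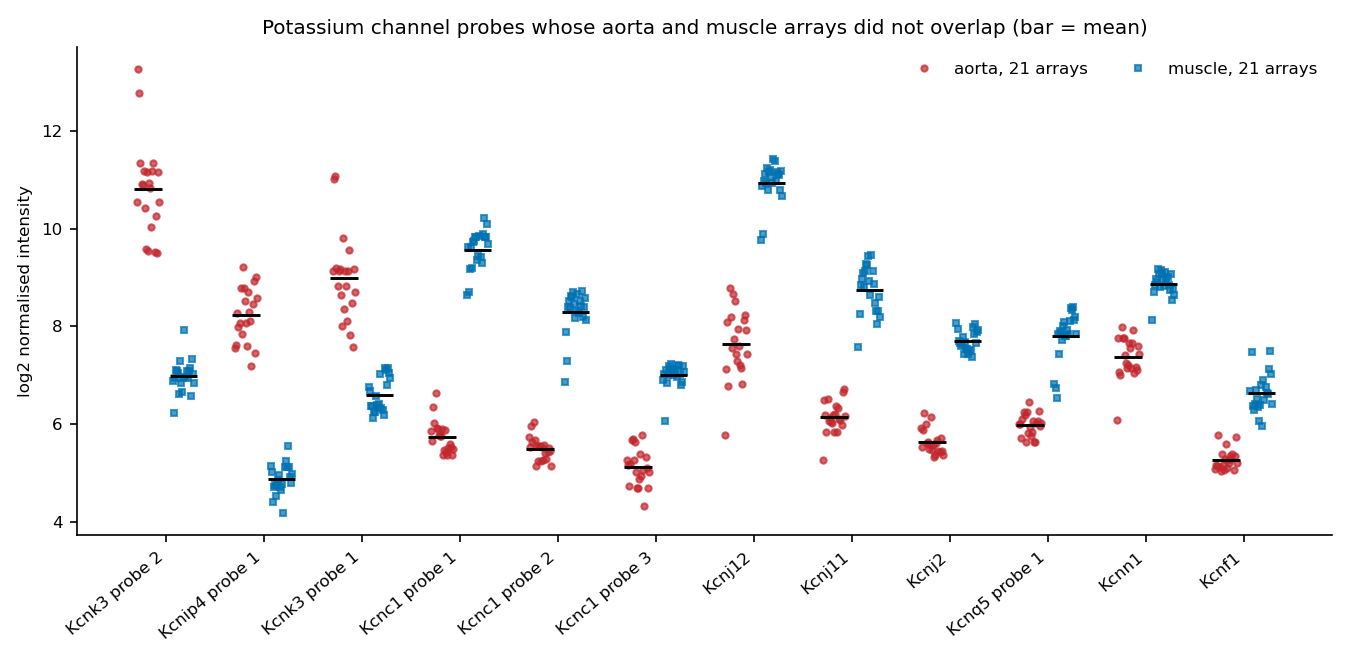
Log2 normalized intensity (vertical axis) of the 12 member probes whose 21 aorta and 21 muscle arrays did not overlap, 1 point per array, with the mean as a bar. Kcnk3 and Kcnip4 lie higher in aorta, and the other probes shown lie lower.

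The tandem-pore channel Kcnk3, which encodes TASK-1, a background channel sensitive to acid, rose furthest in aorta among probes measured in both tissues. Its probe 2 read 9.49, 10.89 and 13.27 in aorta and 6.23, 6.95 and 7.93 in muscle (3.83 ± 0.20, adjusted p = 1.46e-17). Probe 1 differed by 2.40 ± 0.16, and neither probe had overlapping arrays. Kcnk1 was lower in aorta, at −0.81 ± 0.14, and Kcnk6 higher, at 0.37 ± 0.12. 

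Of the channels opened by calcium, Kcnma1, the pore of the large-conductance BK channel, was lower in aorta at its 1 counted probe, at 5.45, 6.63 and 7.11 against 7.10, 7.73 and 8.08 in muscle (−1.18 ± 0.10, adjusted p = 1.36e-12), so that the ranges barely met. Its beta-1 subunit gene Kcnmb1, which raises the calcium sensitivity of BK channels in smooth muscle, was higher. Probe 1 of Kcnmb1 (mm9 chr11:33866191-33866250) read 5.26, 8.53 and 9.47 in aorta and 5.51, 5.80 and 6.35 in muscle (2.33 ± 0.17, adjusted p = 1.34e-13). The overlap came from healthy aorta 1, the array with few smooth muscle markers, which lay below every muscle array, and from healthy aorta 3, at 6.25. Probe 2 was at least 1.41-fold higher. Kcnmb4, a beta subunit of neurons, was higher by 0.96 ± 0.23. The small-conductance channel Kcnn1 was lower by 1.50 log2 units (−1.50 ± 0.11), Kcnn3 stood at −0.34 ± 0.07, Kcnn4, the intermediate-conductance channel of endothelium and blood cells, at 0.74 ± 0.20, and Kcnn2 at 0.00 (adjusted p = 0.987).

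Among the remaining auxiliary subunits, Kcne1l was the 1 probe that was lower in aorta (−0.79 ± 0.13). Kcnip4, a calcium-binding partner of Kv4 channels, read 7.18, 8.27 and 9.23 in aorta at probe 1 and 4.18, 4.85 and 5.54 in muscle, where no array was well above background, so it was at least 7.02-fold higher in aorta (adjusted p = 6.7e-20). Kcnab1, a cytoplasmic beta subunit of Kv1 channels, was higher by 1.87 ± 0.19 at probe 2 and 1.15 ± 0.12 at probe 1. Kcnab2 was higher by 1.38 ± 0.15 and Kcne4 by 1.19 ± 0.13. Kcnmb2 passed (adjusted p = 0.0234), but no muscle array was well above background for it and its bound gave no fold above 1. Kcne3 at −0.15 with both probes (adjusted p = 0.0524 and 0.0658) and Kcne1 at 0.12 (adjusted p = 0.247) did not pass.

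Only slide 4 held both tissues, with diabetic aorta 2 and 3 and healthy muscle 3. For the 12 non-overlapping probes the direction on this slide was fixed by how they were chosen, so it is no separate check. Kcnk3 probe 2 read 10.92 and 10.89 in aorta and 6.95 in muscle there, and Kcnj11 read 6.51 and 6.06 against 8.85. Of the scan days, only the second held both tissues, with healthy muscle 3 as its only muscle array. Tissue can therefore hardly be told apart from slide or scan day in this comparison. With scan day as a block, chosen after seeing the data, 23 of the 83 probes passed, 10 higher and 13 lower. That fit links the tissues through healthy muscle 3, and the share of all probes that passed in it is not given.

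Across the 21 aorta arrays, several members moved with the marker lists of particular cell types. Pearson correlations of the 83 probes with 10 lists in both tissues gave 1660 relations, tested with 100000 permutations each, and 85 passed after adjustment, 52 in aorta and 33 in muscle. Only member probes were correlated with the lists, so these counts have no background share over all probes. They do not show that potassium channel genes move with a list more than other genes. The arrays share groups and slides, and genes and lists share libraries, so these values describe what moves together. Whether cell makeup accounts for any member's difference was not tested.

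With the smooth muscle list, 10 probes correlated positively and 0 negatively. Kcnab1 probe 2 gave r = 0.946 (adjusted permutation p = 0.00104) and rho = 0.900 (0.00128), and r was 0.900 without healthy 1 and huoxue 1, 0.898 over the 17 arrays of 1 scan day, and 0.894 after group means were removed. Kcnmb1 probe 1 gave r = 0.931 (adjusted permutation p = 0.00104) and rho = 0.936 (0.00128), with 0.908 without the same 2 arrays and 0.895 within the scan day. Kcnma1 followed at 0.879, with rho 0.848 and 0.817 without the 2 arrays. Kcnj8 probe 2 gave r = 0.825 and rho = 0.862. At these probes both BK channel subunits and the vascular ATP-sensitive pore thus moved with the smooth muscle list from array to array. The relations of Kcnc4 and Kcnip3 probe 1 rested on the 2 farthest arrays, at 0.424 and 0.461 without them.

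With the nerve and Schwann cell list, 14 probes correlated positively and 0 negatively. Kcnn2 gave r = 0.916 (adjusted permutation p = 0.00104) and rho = 0.960 (0.00128), with 0.906 without SHENQI 3 and yangyinyiqi 3. Kcnt1, a sodium-activated channel, gave 0.889 at probe 3, Kcnk1 0.867, Kcnj10 0.849, Kcna1 0.734, Kcna2 0.727 and Kcnmb4 0.758. Most of these genes are known from neurons or glia.

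Kcnk3 moved with brown fat, at r = 0.890 and rho = 0.729 for probe 2 (adjusted permutation p = 0.00104 and 0.0119), 0.763 without healthy 2 and 3, and 0.924 within the scan day. It also moved with the white fat list, at 0.830 for probe 2 and 0.873 for probe 1. The atrial list went with Kcnj3 (r = 0.816, rho = 0.831, adjusted permutation p = 0.00207 for both) and with Kcng2 (r = 0.851, rho = 0.886). The leukocyte list went with Kcnn4 (r = 0.849, rho = 0.762, adjusted permutation p = 0.00104 and 0.00722) and Kcnk6 (r = 0.794, rho = 0.903). Kcnt2 probe 1 went with fibroblast markers (r = 0.863, rho = 0.842). The relation of Kcng4 with slow muscle fibre markers in aorta, r = 0.815, rested on diabetic 2 and SHENQI 1 and was 0.492 without them.

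**Figure D3:**
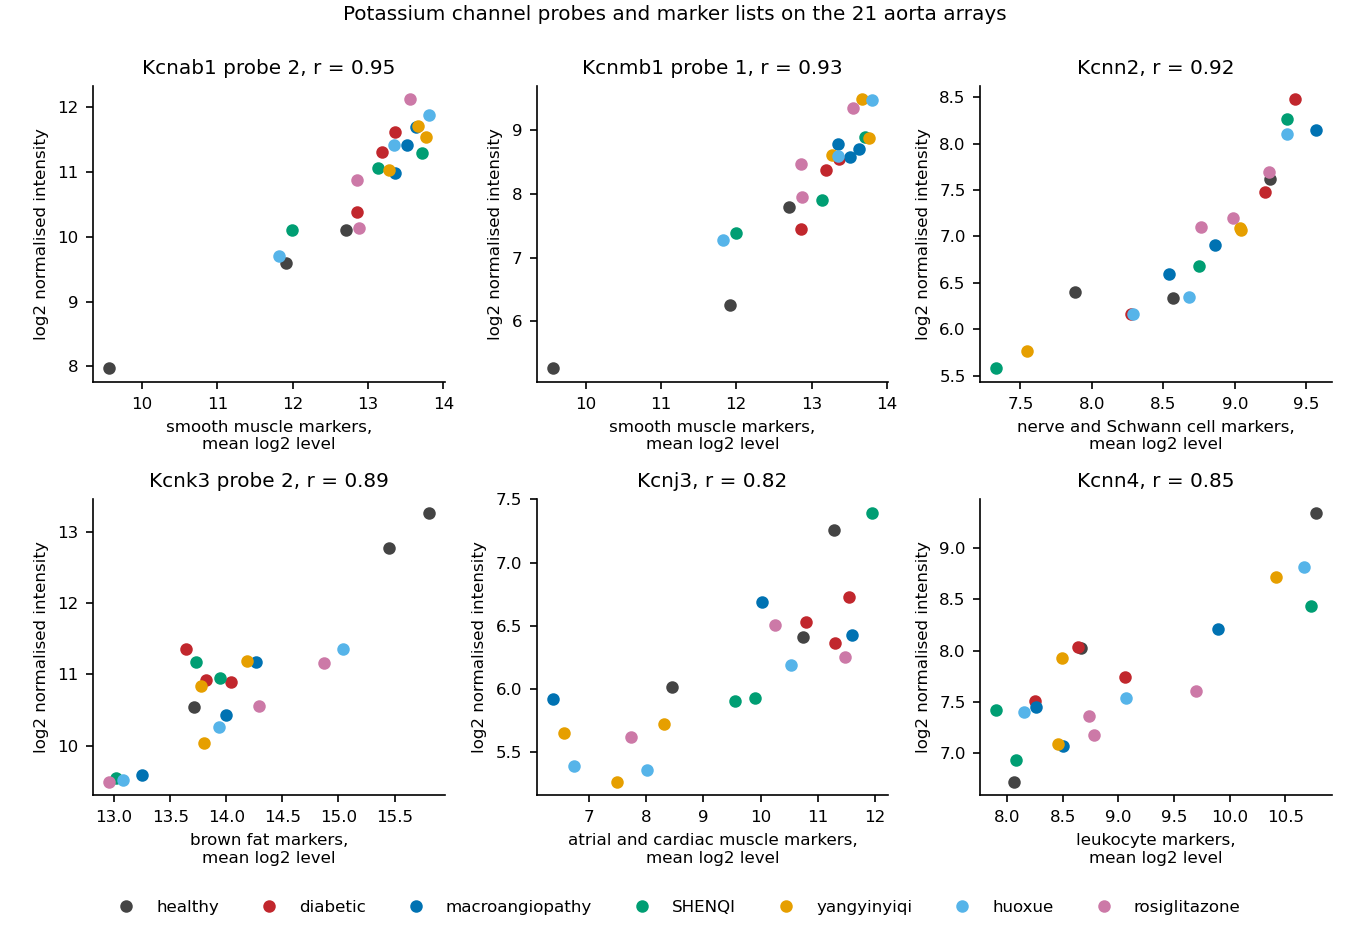
Log2 level of 6 member probes (vertical axis) against the mean log2 level of a marker list (horizontal axis) over the 21 aorta arrays, coloured by group. Kcnab1 and Kcnmb1 rise with smooth muscle markers, Kcnn2 with nerve, Kcnk3 with brown fat, Kcnj3 with atrial markers and Kcnn4 with leukocyte markers, and healthy aorta 1 lies at the low end of the smooth muscle list.

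In muscle, Kcns3 moved with white fat (r = 0.806, rho = 0.814, adjusted permutation p = 0.00175 and 0.00207) and was 0.656 without healthy 1 and SHENQI 3 and 0.907 over the 16 arrays of 1 scan day. Kcnmb4 moved with nerve markers (r = 0.737, rho = 0.761). Against the leukocyte list 11 probes correlated negatively and 2 positively, but healthy muscle 1 and 3 stood apart on that list, at 8.71 and 8.72 against 7.60 to 8.25 on all other muscle arrays, so pooled coefficients are not given. 

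The comparison of diabetic with healthy mice asked what KK/Ay mice with spontaneous diabetes express differently from C57BL/6 mice. In aorta, 7 probes were higher and 1 was lower in the diabetic group, and the higher ones included single probes of the vascular ATP-sensitive and BK channel genes. Of 52 probes tested 8 passed after adjustment and 17 before it, against 14.2% and 28.6% of all probes, and 7.52% of all probes were higher. The median difference was 0.27 log2 units over the members and 0.01 over all probes.

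Kcnj14, an inward rectifier of the Kir2 family, read 5.34, 6.03 and 5.07 in healthy aorta and 7.13, 7.38 and 7.11 in diabetic aorta. No healthy array was well above background, so it was at least 2.76-fold higher (adjusted p = 0.00984). The 3 healthy arrays lay below all 18 other aorta arrays, which ranged from 6.09 to 8.31. Without healthy aorta 1 the gene passed with an adjusted p of 0.0425. On slide 1, healthy aorta 1 and 3 read 5.34 and 5.07 and diabetic aorta 1 read 7.13. This order follows from the healthy arrays lying below every other aorta array, so it is no separate check of slide.

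Kcnab1 probe 2 read 7.97, 10.10 and 9.59 in healthy and 11.61, 10.38 and 11.31 in diabetic aorta, with no overlap (1.88 ± 0.50, adjusted p = 0.0102). Kcnj8 probe 2 read 11.08, 11.68 and 11.39 in healthy and 12.25, 11.98 and 12.20 in diabetic aorta (0.76 ± 0.21, adjusted p = 0.013). Kcnma1 read 5.45, 6.32 and 5.86 against 6.68, 6.74 and 6.67 (0.82 ± 0.26, adjusted p = 0.0286). These probes separated the 2 groups fully, whereas Kcnmb1 probe 1, at 5.26, 7.80 and 6.25 against 8.53, 7.44 and 8.37, overlapped (1.68 ± 0.46, adjusted p = 0.013). Kcnip3 probe 1, a calcium-binding partner of Kv4 channels, passed at 0.53 ± 0.18 (adjusted p = 0.0469), and Kcnt2 probe 2 at 0.64 ± 0.21 with overlap (adjusted p = 0.0392). Probe 1 of Kcnab1 overlapped, at 5.71, 6.91 and 6.28 against 6.97, 6.80 and 6.90, and was not called. Probe 1 of Kcnj8 was not called either, and in the limma fit without healthy aorta 1 it stood at 0.02 (adjusted p = 0.983).

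The smooth muscle list moved the same way. It averaged 9.57, 12.70 and 11.92 in healthy and 13.36, 12.86 and 13.19 in diabetic aorta, and 7 of its 11 probes were called higher (median 1.87). Without healthy aorta 1, 4 members passed, 1 higher and 3 lower, against 7.78% of all probes. Kcnab1 probe 2 was then 1.26 (adjusted p = 0.135), Kcnj8 probe 2 was 0.61 (adjusted p = 0.103), Kcnma1 was 0.61 (adjusted p = 0.201), Kcnmb1 probe 1 was 1.09 (adjusted p = 0.165) and Kcnip3 probe 1 was 0.37 (adjusted p = 0.285). Within slide 1, which held healthy aorta 1 and 3 and diabetic aorta 1, Kcnab1 probe 2 differed by 2.83, and among the arrays of the second scan day by 0.74. The groups did not overlap at this probe, so the direction within a slide or day was fixed and is no separate check. In a limma fit of the 6 arrays alone 0 members passed.

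Kcnk3 was the member lower in diabetic aorta. Probe 1 read 9.14, 11.01 and 11.09 in healthy and 9.19, 8.82 and 9.14 in diabetic aorta (−1.36 ± 0.43, adjusted p = 0.0294), and the groups overlapped through healthy 1. Without that array the difference was −1.99 (adjusted p = 0.00172) and probe 2 passed at −1.97 (adjusted p = 0.0102). The brown fat list averaged 13.71, 15.81 and 15.45 in healthy and 13.64, 13.82 and 14.04 in diabetic aorta, and the white fat list 12.77, 14.30 and 14.57 against 12.33, 12.56 and 12.21. The part of fat in the Kcnk3 values was not tested.

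**Figure D4:**
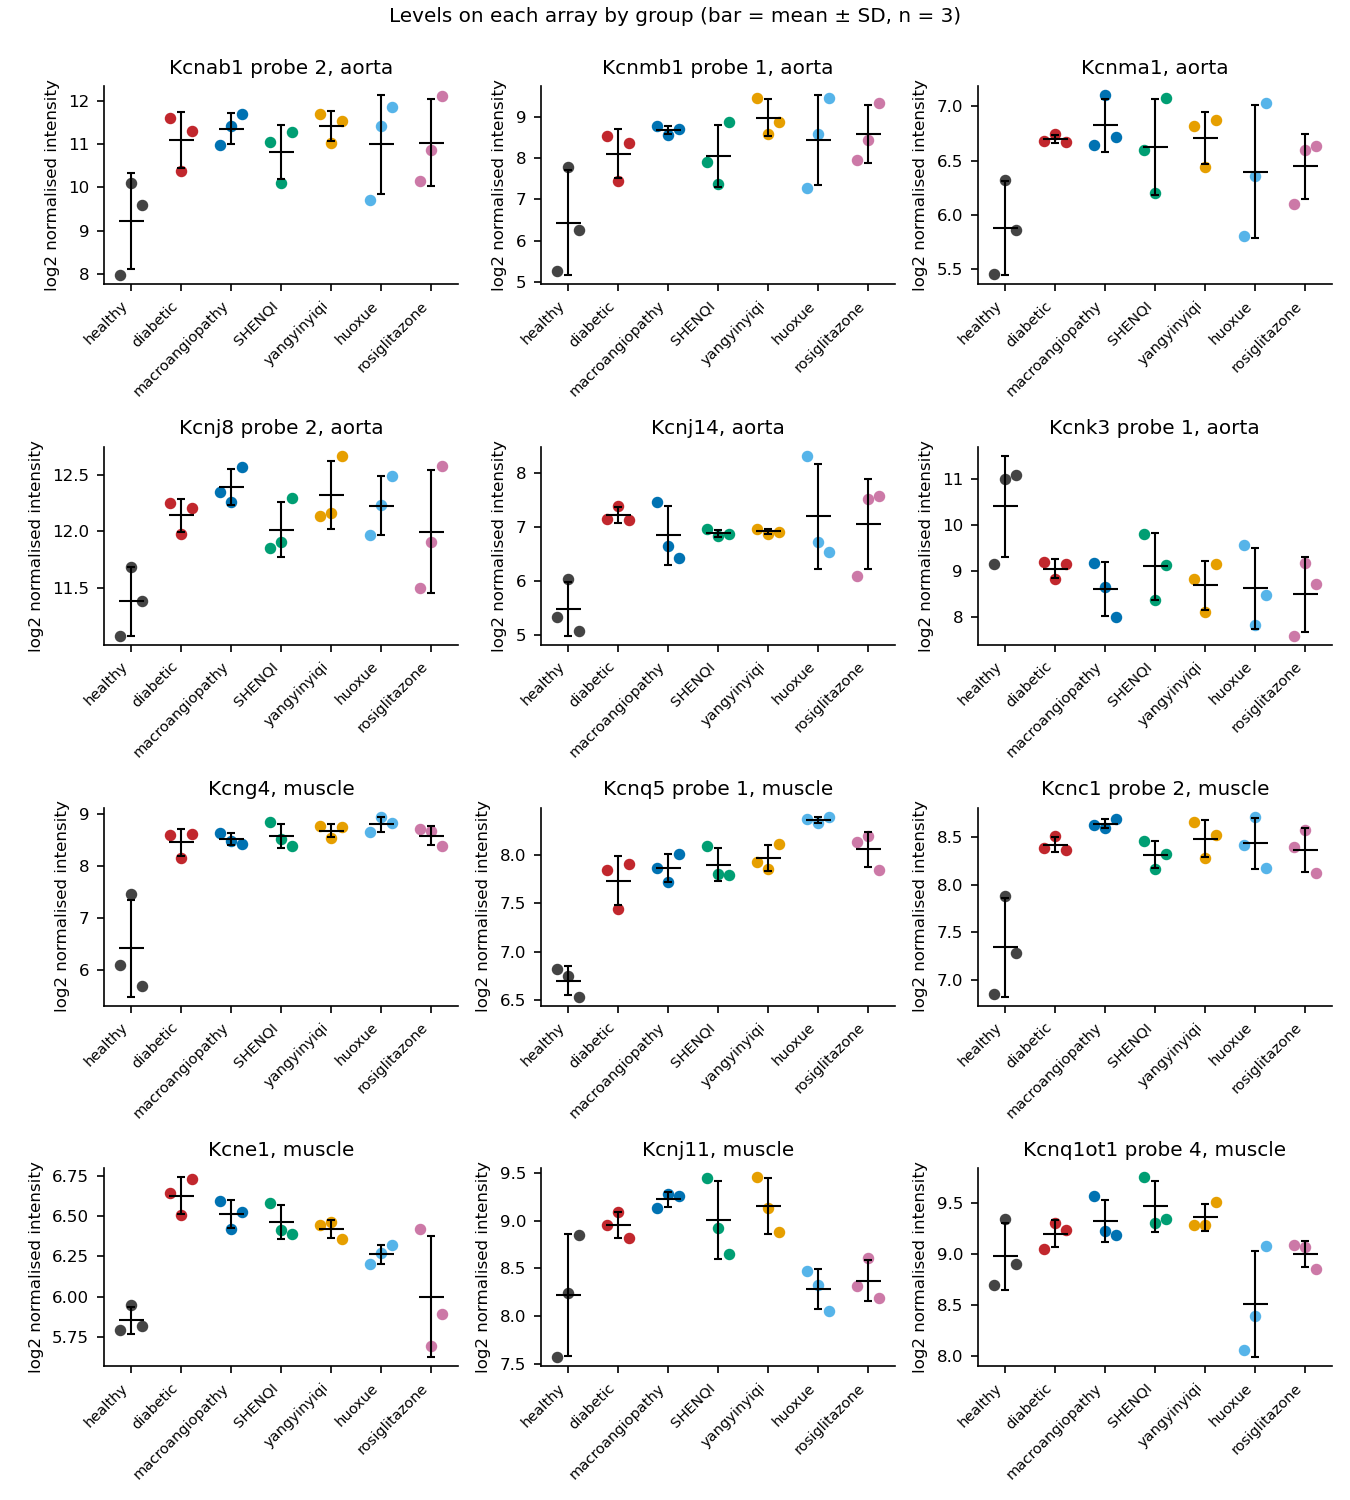
Log2 normalized intensity (vertical axis) of 12 member probes in the 7 groups (horizontal axis), with 6 panels for aorta and 6 for muscle, points for arrays and mean ± SD (n = 3). Healthy arrays lie lowest for Kcnj14 in aorta and for Kcng4, Kcnq5 probe 1 and Kcnc1 probe 2 in muscle, and Kcnj11 is lower in huoxue and rosiglitazone muscle than in macroangiopathy muscle.

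In muscle, 4 of the 52 probes tested passed, all higher in diabetic mice, and 11 passed before adjustment, against 9.81% and 24.2% of all probes, with 5.73% of all higher. The median difference was 0.10 log2 units over the members and 0.04 over all probes. Kcng4, the silent modifier, read 6.10, 7.47 and 5.69 in healthy and 8.59, 8.16 and 8.61 in diabetic muscle (2.03 ± 0.29, adjusted p = 1.7e-05). Kcnq5 probe 1 read 6.82, 6.75 and 6.54 in healthy and 7.84, 7.44 and 7.91 in diabetic muscle (1.03 ± 0.17, adjusted p = 0.000113). Kcnc1 probe 2 read 6.86, 7.89 and 7.29 against 8.39, 8.51 and 8.37 (1.08 ± 0.19, adjusted p = 0.000201). For all 3 probes the healthy arrays lay below every one of the 18 other muscle arrays, whatever the diet or drug. Probe 1 of Kcnc1 differed by 0.33 and did not pass (adjusted p = 0.377). Probe 3 of Kcnc1 overlapped, at 6.89, 7.03 and 6.06 in healthy and 7.11, 6.84 and 7.01 in diabetic muscle, and was not called.

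Kcne1, which slows the opening of Kcnq1 channels, read 5.79, 5.95 and 5.82 in healthy muscle, where no array was well above background, and 6.64, 6.50 and 6.73 in diabetic muscle, so it was at least 1.71-fold higher (adjusted p = 0.0429). Kcnh2, which encodes the cardiac channel ERG, also had all 3 healthy arrays below the other 18, but its difference of 0.85 ± 0.30 did not pass (adjusted p = 0.0711). Kcnj11 stood at 0.73 ± 0.26 (adjusted p = 0.0747), and Kcnn3, not well above background on any healthy array, did not pass either (adjusted p = 0.0569). The healthy arrays stood apart from all 18 others for 5 of 57 member probes in muscle (8.77%) and 3 of 73 in aorta (4.11%). Over all probes the shares were 8.7% and 4.44% in either direction, so the members lay near the background. Each of these member probes was lower in healthy arrays, but the split by direction over all probes is not given.

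Healthy muscle lay on slides 3 and 4 and diabetic muscle on slide 5, so slide and group cannot be told apart in this comparison alone. Slide 3 held healthy muscle 1 and 2 beside rosiglitazone muscle 2 and 3, and no diabetic array. There Kcng4 read 6.10 and 7.47 against 8.66 and 8.38, and Kcnq5 probe 1 read 6.82 and 6.75 against 8.19 and 7.85. Kcnc1 probe 2 read 6.86 and 7.89 against 8.58 and 8.12. The order of these 3 probes on slide 3 follows from their healthy arrays lying below every other muscle array, so it is no separate check of slide. Kcne1 read 5.79 and 5.95 against 5.69 and 5.89 there and overlapped. With scan day as a block, chosen after seeing the data, none of the 4 passed, with Kcng4 at 1.49 (adjusted p = 0.11). White fat markers were lower in diabetic muscle on 3 of 5 probes (median −2.78), leukocyte markers averaged 8.71, 8.02 and 8.72 in healthy and 7.76, 7.89 and 7.95 in diabetic muscle, and slow fibre markers, with 0 of 9 probes called, averaged 14.06 to 14.31 and 14.79 to 15.14. The part of these cell types in the differences was not tested.

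The partners of the channels were read from a fixed list. Abcc9, which encodes SUR2, the sulfonylurea receptor that joins Kcnj8 or Kcnj11 in ATP-sensitive channels of muscle, passed in both tissues on 2 of its 3 probes. The first of these read 7.03, 7.71 and 7.54 in healthy and 11.29, 10.64 and 10.50 in diabetic aorta, a difference of 3.39 ± 0.31 (adjusted p = 1.07e-08), and 8.48, 9.14 and 8.84 against 10.88, 10.81 and 10.99 in muscle, a difference of 2.08 ± 0.31 (adjusted p = 3.19e-05). The second differed by 3.13 in aorta and 1.56 in muscle (adjusted p = 1.21e-07 and 0.00166). The third Abcc9 probe stood at 0.87 in aorta and −0.09 in muscle and did not pass (adjusted p = 0.0523 and 0.892). The probes thus disagreed within the gene in the same samples, and whether they match the sequence of both strains was not analysed here. Without healthy aorta 1 the first 2 probes were 3.19 and 2.83 in aorta (adjusted p = 1.95e-07 and 1.89e-06). Abcc8, the receptor of beta cells and neurons, did not pass in either tissue.

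Other partner lists were counted in the same way, against 76.1% of all probes called between tissues, 14.2% in diabetic aorta and 9.81% in diabetic muscle. Among 9 probes of further auxiliary genes 4 were higher and 4 lower in aorta than in muscle, and Lrrc38, a gamma subunit of BK channels, was lower by 2.93 log2 units (−2.93 ± 0.11) and was higher in diabetic than healthy muscle by 1.44 ± 0.28 (adjusted p = 0.000811). Voltage-gated calcium channels, which potassium channels oppose, gave 8 higher and 14 lower of 24 probes between tissues, and 3 higher of 14 in diabetic aorta and 1 higher of 14 in diabetic muscle. Calcium release channels gave 10 higher and 4 lower of 16 between tissues and 0 called in diabetic mice of 15 probes in aorta and 12 in muscle. Membrane anchors and turnover genes gave 3 higher and 1 lower of 10 probes in diabetic aorta, and 2 higher and 1 lower of 10 in diabetic muscle.

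Whether the difference between diabetic and healthy mice itself differed between tissues was tested as an interaction. Of the 83 probes tested in any of the 6 group comparisons, 0 passed in limma after adjustment and 22 before it, against 1.16% and 28.7% of all probes. Kcng4 came nearest, with a difference smaller in aorta by 1.64 log2 units (−1.64 ± 0.42, adjusted p = 0.0535), followed by Kcnc1 probe 2 (−1.04 ± 0.26, adjusted p = 0.0547). The muscle calls of these genes and the aorta calls of Kcnj14 and Kcnab1 are thus not shown to be particular to a tissue.

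The macroangiopathy group was compared with the diabetic group for the effect of the high-fat diet and L-NAME within KK/Ay mice. No member passed in limma in either tissue. In aorta 0 of 66 probes passed after adjustment and 4 before it, against 0% and 3.57% of all probes. The smallest p values belonged to Kcnq1 at −0.58, Kcnt2 probe 2 at −0.47 and Kcne1, which no diabetic aorta array read well above background, all with an adjusted p of 1. In muscle 0 of 51 passed after and 0 before adjustment, against 0.00864% and 1.53%, with Kcnc1 probe 1 at 0.44, Kcnk13 at 0.46 and Kcnq1ot1 probe 1 at 0.28. These groups lay on separate slides, so slide and group cannot be told apart.

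Each treatment was set against the macroangiopathy group, whose arrays all 4 comparisons share. With SHENQI, 0 of 65 aorta probes passed in limma and 1 before adjustment (Kcnc2 probe 1, 0.35), against 0% and 2.89% of all probes, and 0 and 0 of 49 in muscle against 0% and 0.408%. With yangyinyiqi, 0 of 70 aorta probes passed and 1 before adjustment (Kcnj3, −0.80), against 0% and 0.908%, and 0 and 0 of 47 in muscle against 0% and 0.372%. With huoxue, 0 of 70 aorta probes passed and 2 before adjustment, against 0% and 1.89%, and these were Kcnc4 at −1.01 and Kcnj3 at −0.70. With rosiglitazone, 0 and 0 of 70 aorta probes passed against 0% and 6.14%, with Kcnj15 probe 1 at −0.47 (adjusted p = 0.826). With 3 arrays per group, smaller differences would not have been detected.

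Muscle of huoxue-treated mice was the only treated set in which members passed. Kcnj11, the pore of the ATP-sensitive channel of muscle, was lower, as was Kcnq1ot1 at probe 4. Kcnj11 read 9.14, 9.28 and 9.25 in macroangiopathy and 8.47, 8.32 and 8.06 in huoxue muscle, with no overlap (−0.94 ± 0.26, adjusted p = 0.0212). Kcnq1ot1 probe 4 read 9.57, 9.23 and 9.19 against 8.05, 8.39 and 9.08 (−0.82 ± 0.25, adjusted p = 0.0348). Probe 1 of Kcnq1ot1 went the other way, at 6.58, 6.33 and 6.50 against 6.72, 6.99 and 6.97, and was not called. Probe 2, at 8.46, 7.89 and 8.24 against 8.31, 8.43 and 8.60, overlapped and was not called either. In all 2 of 45 probes passed and 9 before adjustment, against 9.57% and 24.6% of all probes. The skeletal muscle list was also lower without overlap, at 16.56, 16.64 and 16.74 in huoxue muscle and up to 17.02 in macroangiopathy muscle, with 0 of its 8 probes called, and its part in the Kcnj11 values was not tested. In rosiglitazone muscle 0 of 48 passed and 6 before adjustment, against 0.267% and 13.4%, and Kcnj11 was nearest at −0.85 ± 0.26 (adjusted p = 0.135).

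The Kcnj11 levels followed the slides as well as the groups. The 3 huoxue arrays and rosiglitazone muscle 1, at 8.31, shared slide 11, the slide with the fewest probes above background. On slide 3, healthy muscle 1 and 2 read 7.57 and 8.24 and rosiglitazone muscle 2 and 3 read 8.61 and 8.19. All arrays of slides 5, 7 and 8, with the diabetic, macroangiopathy, SHENQI and yangyinyiqi groups, read between 8.65 and 9.46, above every array of slides 3 and 11. With slide as a random block 0 members passed, and Kcnj11 stood at −0.97. With slides 1, 3 and 11 as a batch term it stood at −0.44. For huoxue muscle, slide and treatment cannot be told apart.

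**Figure D5:**
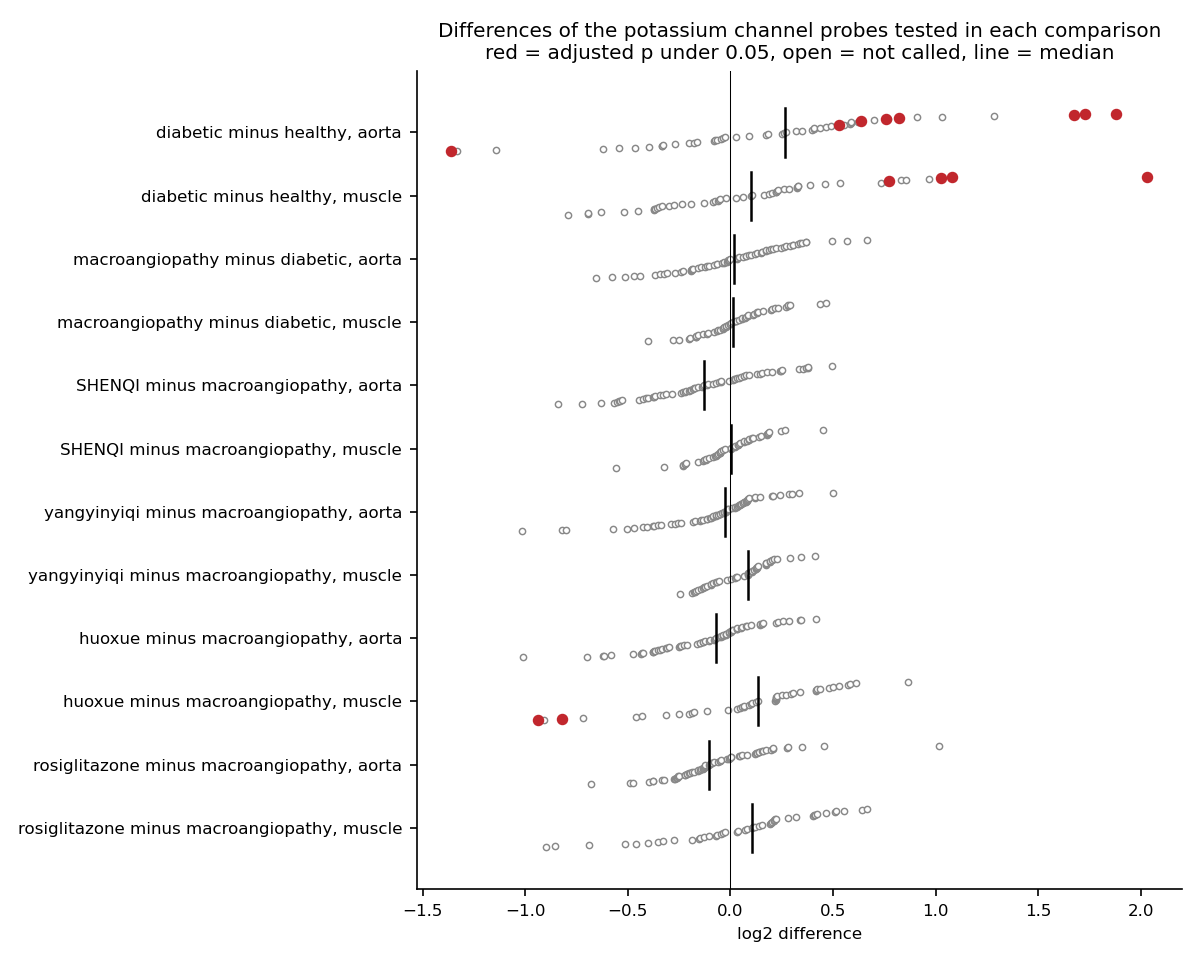
Log2 difference of every member probe tested in each of the 12 group comparisons (1 row each), with called probes in red and the median as a line. Calls appear for diabetic against healthy mice, with 8 in aorta and 4 in muscle, and for huoxue muscle, with 2, and there are none elsewhere.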

How the data were processed

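The authors labelled total RNA of aorta and muscle from 7 groups of 3 for 42 Agilent 4x44k arrays of 1 colour and read them with Agilent Feature Extraction 10.7, per the file headers. The deposited scanner files give for 45018 spots (1639 controls) the median intensity of spot and local background, flags (well above background, irregular) as other columns, and gene names in 8 of the 42 files. A value table of log2 normalized signals that the authors deposited served only as an alternative. Median intensities were corrected with normexp (offset 0), quantile normalized over the 42 arrays, put on the log2 scale and averaged per probe, with irregular spots and controls left out, with limma 3.58.1 in R 4.3.3. The methods of the study name limma, background correction and quantile normalization with a p value below 0.05 and no adjustment stated. Here 14 group-by-tissue means were fitted with lmFit and eBayes, with Benjamini-Hochberg adjustment at a threshold of 0.05 over all probes that were well above background throughout a compared set of 3 arrays. Differences are given with the standard error of the fit. Each probe has 1 residual variance over both tissues, so a standard error does not reflect the spread of 1 tissue alone. A probe not well above background on any array of a side is given as at least N-fold, from the bright side's mean against, per array, the higher of the probe's own signal and the lowest signal among probes well above background. The methods state that tissues of 3 mice per group were collected, but no label ties an array to a mouse, so p values measure the spread between arrays.

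Genes named were a fixed set of vascular and muscle channel genes, the non-overlapping called probes with the largest differences, and the 3 smallest p values where fewer than 3 passed. Kcna1, Kcna6, Kcng2, Kcnj10, Kcnh2, Kcnk1, Kcnt1, Kcns3, Kcnt2, Kcne1l and Kcnj9 were named after their values were seen. The members and the marker, partner and named lists were chosen with earlier results of these data known. Probe positions are those of the array files (mm9). Start regions came from RefSeq (GRCm38.p6) and correlations were computed in Python 3.11.15 with numpy 2.4.6, scipy 1.17.1 and pandas 2.3.3, and figures in matplotlib 3.10.9. Results for 3 genes are not reported here, although counts include their probes. The fit was tested on simulated data. Alternatives were an offset of 50, the processed signal scaled to its 75th percentile, the authors' table, no filter, slide as a random block, slides 1, 3 and 11 as a batch term, replicate number as a block, only the arrays compared, each array left out, and scan day as a block, the last chosen after seeing the data.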

Additional observations from a re-analysis of the deposited data

How the results depend on the processing

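The count of members that passed between aorta and muscle was 61 and lay between 59 and 64 when each array was left out. It was 23 with scan day as a block and 13 with the healthy arrays alone. Of the 12 probes named there, 9 passed under every alternative, and Kcnq5 probe 1, Kcnn1 and Kcnf1 were lost at least once. For diabetic against healthy aorta the count of 8 became 4 with scan day as a block and 0 with the arrays compared alone, and lay between 4 and 11 with arrays left out. For diabetic against healthy muscle the count of 4 became 7 with slides 1, 3 and 11 as a batch term and 0 with scan day as a block, and lay between 3 and 6 with arrays left out. For macroangiopathy against diabetic muscle it was 1 without the filter. For huoxue muscle the count of 2 became 4 with an offset of 50, 1 with the processed signal, 0 with the authors' table, 1 without the filter, 0 with slide as a random block, 0 with slides 1, 3 and 11 as a batch term, 6 with scan day as a block and 18 with the arrays compared alone, and lay between 0 and 1 with arrays left out. For rosiglitazone muscle it was 1 with an offset of 50, 1 with scan day as a block and 7 with the arrays compared alone. For the tissue interactions it was 3 with an offset of 50, 2 with slides 1, 3 and 11 as a batch term, 1 with the replicate number as a block, 2 with the arrays compared alone and 0 to 3 with arrays left out. None of the named results changed direction, and each of the 11 from group comparisons lost its call under at least 1 alternative. The cause of these shifts was not tested, and the share of all probes that passed under each alternative is not given. A rise or fall in these counts is thus no result about potassium channel genes. Replicate numbers showed no pairing of the groups within a tissue, as 0 of 12 comparisons had every pair's correlation above 0.1. The correlations ran from −0.511 to 0.551. Whether replicate numbers link the aorta and muscle arrays of a mouse was not tested. The replicate block gave 62, 9, 4 and 2 members for the comparisons with calls. The number of arrays and the small distance of many members from background limit the precision.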
